A study of Mus musculus with 12 samples.

Results

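S100 proteins are small calcium-binding proteins with a pair of EF-hand motifs, most of which act as dimers that bind and alter other proteins when calcium rises. Most of their genes lie side by side in one cluster, next to the epidermal differentiation genes. Individual members are known as markers of particular cells: S100A4 of fibroblasts and other mesenchymal cells, S100A14 of epithelia, S100A8 and S100A9 of neutrophils and stressed keratinocytes. The 10 genes described here (S100a1, S100a4, S100a6, S100a8, S100a9, S100a10, S100a11, S100a13, S100a14 and S100a16) were chosen by name, and all 10 were found among the 43243 gene names of the deposited files.

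The libraries are RNA-seq of mouse prostate organoids, cultures of prostate cells grown in Matrigel with EGF at 5 to 50 ng/ml. Each of 6 pairs, S0 to S5, gave 1 SPOPmut and 1 SPOPwt library. SPOP recruits substrates to a cullin 3 ubiquitin ligase, and the study asked which genes differ between SPOPmut organoids and their controls. All organoids of the inducible models, SPOPmut and SPOPwt alike as far as the protocols say, carried a tamoxifen-dependent Cre recombinase and received 4-hydroxytamoxifen at 1 µM. In model A (5 pairs) the recombinase came from a virus with puromycin selection, and in model B (1 pair) from a transgene under Tmprss2, a gene of prostate epithelium. SPOPmut cells were then sorted by GFP, whereas controls were sham-sorted, so the mutant and the selection cannot be told apart. The labels name an F133V allele at the Rosa26 locus for Probasin-Cre organoids, do not spell out the allele of models A and B, and do not say which pair is model B or whether the 5 pairs of model A came from separate animals or cultures. The p-values therefore measure the spread between these samples, which may be technical.

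The values are RPKM, reads scaled for transcript length and library size, so levels can be compared between genes. Depth was estimated at 28.25 to 40.98 M reads per library, with 13012 to 13885 genes at 1 RPKM or more. Spop was listed at 48.1 to 57.0 RPKM in SPOPmut libraries and 39.97 to 52.7 RPKM in SPOPwt libraries, without separation of mutant from endogenous transcripts. The label "prostate organoid" did not describe one cell type. In the 10 libraries of S0 to S4 the epithelial genes Epcam and Krt5 reached at most 1.28 and 0.241 RPKM, against 88.6 to 96.3 and 1194 to 1705 RPKM in the 2 libraries of S5. The mesenchymal genes Col1a1 and Vim ranged over 269 to 848 and 213 to 525 RPKM in S0 to S4, against at most 0.202 and 0.0582 RPKM in S5. Of the 12 mesenchymal genes listed, Thy1 and Lum overlapped between S0 to S4 and S5. That S5 stands apart was known from earlier results on these libraries, and no label gives it as a group, so S0 to S4 are set against S5 as a description with no test.

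Of the 10 members, 3 were higher in every library of S0 to S4 than in S5 (S100a4, S100a1 and S100a13), 2 were lower in every one (S100a14 and S100a9), and 5 overlapped. Such splits were common: among the 13600 genes at 1 RPKM or more in at least 6 of the 12 libraries, 28.1% were higher throughout S0 to S4 and 21.4% lower throughout. Among the 15508 genes at that level in at least 2 libraries the shares were 27% and 24.9%. That wider set also admits genes at this level only in the 2 libraries of S5. Of the 2 lower members, S100a14 is only among the 15508, and S100a9, at most 0.873 RPKM, is in neither set. The members' count thus gives no result about the family. Ranked by the difference in mean log2(RPKM + 1), S100a4 was number 5 of 15508 genes from the S0 to S4 end and S100a14 number 10 from the S5 end. In bulk libraries fewer cells of a type and less RNA per cell cannot be told apart.

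**Figure D1:**
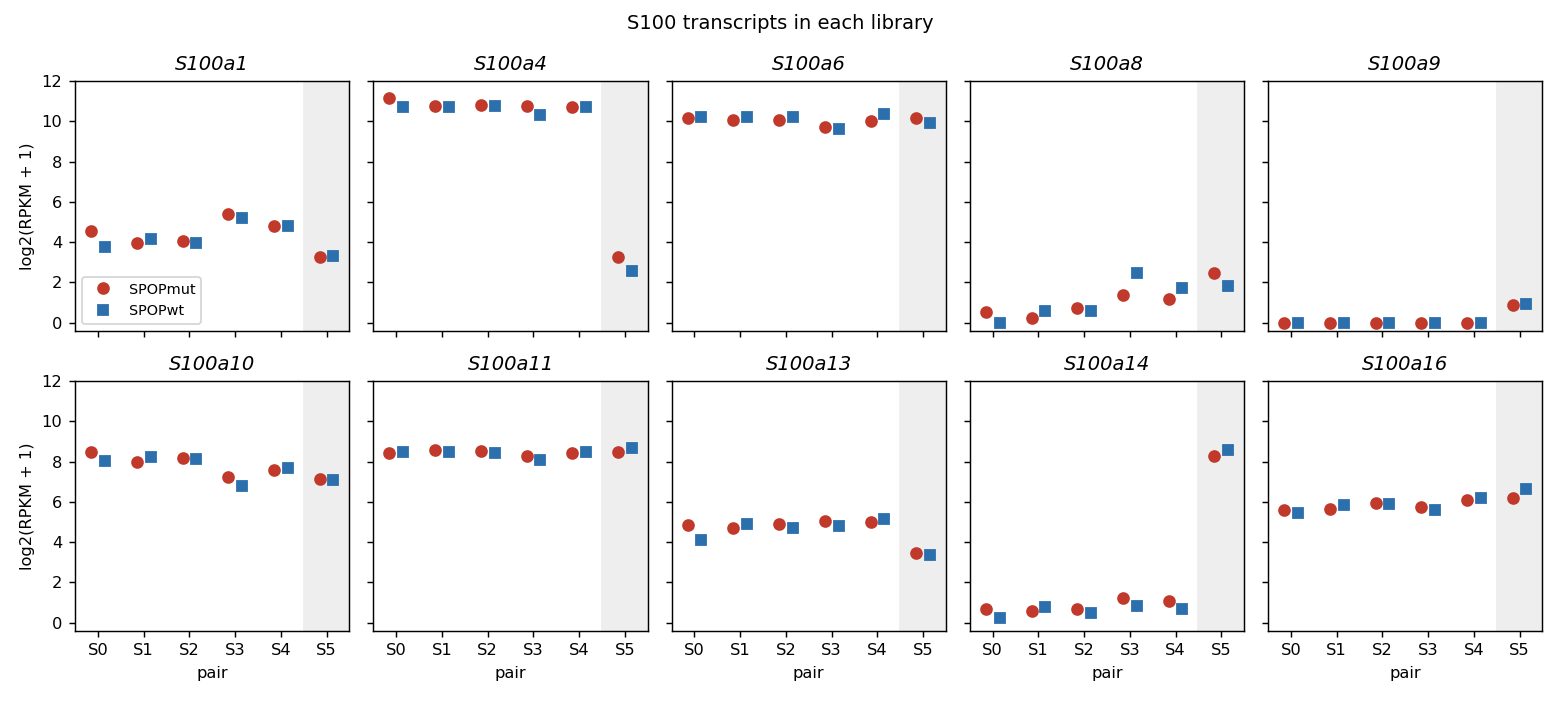
Level of each S100 member as log2(RPKM + 1) in the 12 libraries, by pair, with SPOPmut (circles) and SPOPwt (squares) side by side and pair S5 shaded. S100a4 spans 1290 to 2266 RPKM outside S5, where it is at 8.52 (SPOPmut) and 5.00 RPKM (SPOPwt), and S100a14 does not exceed 1.33 RPKM outside S5, where it reaches 311 RPKM in SPOPmut and 381 RPKM in SPOPwt.

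Promoter windows from RefSeq (GRCm38.p6, 250 bases before to 50 after a gene start) were found for 8 of the 10 members, with no window for S100a10 and S100a14. The first is shown because S100a1 and S100a13, which both stood lower in S5, start back to back. Their starts lie 105 bases apart on opposite strands, and the capitals mark the 204 bases that the windows of both genes share (chr3:90514185-90514484, plus strand).
S100a13: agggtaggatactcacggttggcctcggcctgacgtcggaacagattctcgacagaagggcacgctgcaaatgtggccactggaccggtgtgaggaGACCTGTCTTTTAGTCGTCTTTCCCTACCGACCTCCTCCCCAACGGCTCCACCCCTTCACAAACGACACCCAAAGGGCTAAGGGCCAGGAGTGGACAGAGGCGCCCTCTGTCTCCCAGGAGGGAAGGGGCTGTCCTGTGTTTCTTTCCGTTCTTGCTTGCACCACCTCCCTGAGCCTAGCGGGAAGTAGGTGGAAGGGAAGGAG
The next pair is shown because S100a4 and S100a6 are near neighbours and only S100a4 split by pair. Capitals mark the TATA box letters TATAAA, which in S100a4 (chr3:90603520-90603819, plus strand) begin at position -31 from the start and which the S100a6 window (chr3:90612644-90612943, plus strand) lacks.
S100a4: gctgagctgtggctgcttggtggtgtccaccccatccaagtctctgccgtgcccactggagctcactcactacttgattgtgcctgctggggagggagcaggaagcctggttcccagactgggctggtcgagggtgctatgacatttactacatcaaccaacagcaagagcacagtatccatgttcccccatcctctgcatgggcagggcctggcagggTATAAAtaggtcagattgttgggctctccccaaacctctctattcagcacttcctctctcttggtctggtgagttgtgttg
S100a6: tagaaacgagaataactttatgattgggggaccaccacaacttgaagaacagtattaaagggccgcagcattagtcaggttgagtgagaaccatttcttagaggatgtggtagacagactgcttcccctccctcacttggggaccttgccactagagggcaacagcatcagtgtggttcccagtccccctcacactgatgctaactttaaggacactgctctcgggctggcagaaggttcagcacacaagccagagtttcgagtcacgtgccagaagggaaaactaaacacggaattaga
The last is shown as the promoter of the member that varied least between libraries. In S100a11 (chr3:93520246-93520545, plus strand) capitals mark 3 GC boxes (GGGCGG) and 2 AP-1 motifs (TGANTCA).
S100a11: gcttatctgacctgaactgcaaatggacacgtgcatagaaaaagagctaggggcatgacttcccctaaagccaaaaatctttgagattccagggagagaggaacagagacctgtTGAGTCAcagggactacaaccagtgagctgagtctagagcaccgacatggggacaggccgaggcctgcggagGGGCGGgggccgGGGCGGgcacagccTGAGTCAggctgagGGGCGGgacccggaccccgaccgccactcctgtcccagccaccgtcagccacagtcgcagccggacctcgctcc
Searched on both strands, with no overlap between the motifs in these windows, TATAAA was found in 13.6% of 32851 promoter windows of the same length, GGGCGG in 35.7%, TGANTCA in 7.81% and the E-box CACCTG in 20.2%. TATAAA was present for 3 of the 8 members (S100a4, S100a8 and S100a9), GGGCGG for 3, TGANTCA for 2 and CACCTG for 2. The shares are per window, whereas the 8 members have 9 windows. S100a16 has 2, and its GGGCGG and TGANTCA lie only in window 2. In S100a9 TATAAA begins at position 0, the gene start itself. A match describes these letters only.

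S100a4, known as metastasin or fibroblast-specific protein, binds non-muscle myosin IIA. Across S0 to S4 it ran from 1290 to 2266 RPKM with a median of 1726 (n = 10), against 8.52 RPKM in the SPOPmut and 5.00 RPKM in the SPOPwt library of S5. It was the 7th to 10th most abundant transcript in S0 to S4 and number 6329 and 8517 in S5. The mean level was 256-fold higher in S0 to S4 than in S5. GENCODE M21 places S100a4 on chromosome 3 at 90603771 to 90606045 (plus strand, GRCm38), where it shares exon sequence with the same-strand gene Gm42674, so some of its reads may belong to that gene. By the mean absolute difference of centred log2 profiles over the 12 libraries, the closest of 11060 genes were the chemokine gene Ccl7 (0.35) and Vim (0.39).

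S100a14, a member known mainly from epithelia, showed the reverse pattern. It ran from 0.184 to 1.33 RPKM in S0 to S4 with a median of 0.608 (n = 10), against 311 RPKM in the SPOPmut and 381 RPKM in the SPOPwt library of S5. It ranked between number 13160 and 16462 of all genes in S0 to S4, and number 114 and 106 in S5 (SPOPmut and SPOPwt). Its values in S0 to S4 correspond to about 12 to 71 reads, so differences among those libraries rest on few reads. Its closest profiles were Krt4, a keratin of stratified epithelium (0.17), and Atg9b, an autophagy gene (0.23). S100a14 lies on chromosome 3 at 90526856 to 90528837, and only S100a16 lies between it and S100a3 in the order of the S100 genes.

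S100a16 neighbours S100a14 and is broadly expressed. Across S0 to S4 it ran from 43.3 to 72.9 RPKM with a median of 54.6 (n = 10), against 72.2 and 99.1 RPKM in S5 (SPOPmut and SPOPwt). The ranges met only at the S4 SPOPwt library (72.9 RPKM), and when libraries were rescaled to an equal sum, or quantile-normalized, S5 lay above all of S0 to S4. The ratio of S100a14 to S100a16 was at most 0.0255 in S0 to S4, against values of 3.85 to 4.31 in S5. The closest profiles to S100a16 were Tspan9 (0.092) and Mettl4 (0.11).

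S100a1, best known in heart muscle for its action on calcium release and uptake, and S100a13, which takes part in the export of FGF1, were lower in S5 than in any other pair. S100a13 ran from 16.2 to 34.0 RPKM in S0 to S4 with a median of 28.3 (n = 10), against 9.88 and 9.33 RPKM in S5 (SPOPmut and SPOPwt). S100a1 ran from 12.48 to 41.0 RPKM in S0 to S4 with a median of 19.7 (n = 10), against 8.52 and 8.999 RPKM in S5. Thus S5 lay below the lowest library of S0 to S4 for both, but far less so than for S100a4: the mean was 2.87-fold higher in S0 to S4 for S100a13 and 2.60-fold for S100a1. S100a1 also varied within S0 to S4, at 35.9 to 41.0 RPKM in S3 and 26.5 to 27.3 RPKM in S4, against 12.48 to 22.7 RPKM in S0, S1 and S2. S100a13 did not separate in that way (27.0 to 34.0 RPKM in S3 and S4, 16.2 to 28.7 RPKM in S0, S1 and S2). The S100a1 to S100a13 ratio ran from 0.542 to 1.33 over the 12 libraries. The closest profiles were Tle6 (0.073) and Rab36 (0.087) to S100a1, and Mov10 (0.090) and Prrg1 (0.11) to S100a13. The kit (TruSeq RNA, version 2) does not mark strand, and reads near the divergent starts cannot be assigned to one gene by strand. In GENCODE M21 the 2 genes do not overlap, as S100a1 ends at 90514392 and S100a13 starts at 90514435.

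S100a8 and S100a9 form calprotectin, the metal-binding heterodimer of neutrophils. S100a9 was listed at 0 in all 10 libraries of S0 to S4 and at 0.824 and 0.873 RPKM in S5 (SPOPmut and SPOPwt), about 14.6 and 18.7 reads. S100a8 ran from 0 to 4.47 RPKM in S0 to S4 with a median of 0.575 (n = 10), against 4.49 and 2.52 RPKM in S5. The ranges overlap only through the S3 SPOPwt library (4.47 RPKM), and without S3 S100a8 was lower throughout the remaining pairs than in S5. Within S0 to S4 it stood at 1.25 to 4.47 RPKM in S3 and S4, where S100a9 was listed at 0, and did not exceed 0.642 RPKM in S0, S1 and S2. The 10 neutrophil markers summed to 0.042 to 0.50 RPKM in S0 to S4 and to 40.04 and 50.7 RPKM in S5. Nearly all of the S5 sum was Ltf (39.0 and 49.6 RPKM), a secreted iron-binding protein. Ly6g, a neutrophil surface marker, stood at 0.849 to 1.05 RPKM in S5, above its highest value of 0.141 RPKM in S0 to S4. The other 8 markers were under 1 RPKM in every library, with Camp the highest of them (at most 0.305 RPKM) and Retnlg listed at 0 throughout. The part of neutrophils in the S100a8 and S100a9 values was not tested. The closest profiles were Cxadr (0.25) and Cpeb2 (0.26) to S100a8, and Btn1a1 (0.040) and Xrcc3 (0.049) to S100a9.

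S100a6, S100a11 and S100a10 bind annexins, and were abundant in all 12 libraries. S100a6 (calcyclin) ran from 780 to 1320 RPKM in S0 to S4 with a median of 1104 (n = 10), against 1163 and 970 RPKM in S5 (SPOPmut and SPOPwt), and ranked between number 10 and 23 of all genes in every library. S100a11, a partner of annexin A1, ran from 267 to 378 RPKM in S0 to S4 with a median of 349 (n = 10), against 356 and 407 RPKM in S5. The S5 libraries fell within the S0 to S4 range for S100a6, and for S100a11 1 of the 2 did. S100a11 had the smallest spread of the members above 1 RPKM, with a highest to lowest ratio of 1.42 in S0 to S4. After rescaling to an equal sum or quantile normalization, S5 lay above all of S0 to S4 for S100a11. RefSeq lists an S100a11 pseudogene on chromosome 12, which may share its reads. The closest profiles were Oma1 (0.092) and Tti1 (0.094) to S100a6, and Rpl18 (0.054) and Rpl18-ps2 (0.055) to S100a11.

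S100a10 (p11) differs from the family in that it has lost calcium binding, and it forms a tetramer with annexin A2 that presents plasminogen activators at the cell surface. It split by pair in another way: 190 to 351 RPKM in S0, S1, S2 and S4, against 147 and 109 RPKM in S3 and 141 and 137 RPKM in S5 (SPOPmut and SPOPwt each). Anxa2 had the closest profile to it of 11060 genes (0.13), followed by Sptssa (0.13). Anxa2 stood at 170 to 241 RPKM in S0, S1, S2 and S4, against 114 and 95.7 RPKM in S3 and 103 and 110 RPKM in S5. The S100a10 to Anxa2 ratio stayed between 1.04 and 1.70 over the 12 libraries, while S100a10 itself varied 3.22-fold within S0 to S4.

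**Figure D2:**
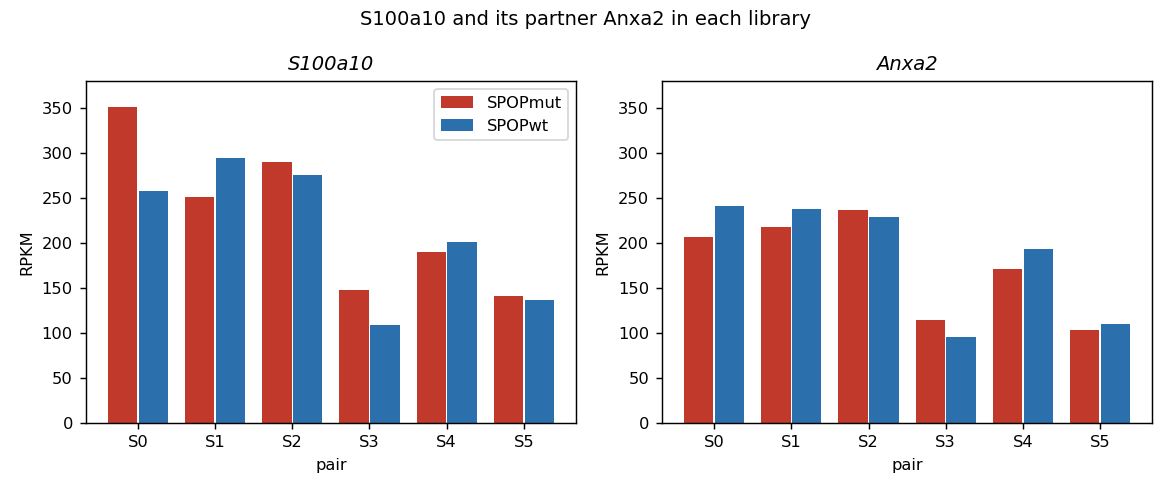
RPKM of S100a10 (left) and Anxa2 (right) in each library, by pair, with SPOPmut and SPOPwt side by side. Both genes are lowest in S3 and S5, at 109 to 147 RPKM for S100a10 and 95.7 to 114 RPKM for Anxa2.

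Added together, the 10 members made up 0.798 to 1.32% of the summed RPKM in S0 to S4 and 0.650 and 0.580% in S5 (SPOPmut and SPOPwt). S100a4 supplied 45.1 to 55.0% of the members' sum in S0 to S4 and at most 0.41% in S5, while S100a6 supplied 26.7 to 36.0% in S0 to S4, against 56.0 and 48.0% in S5. S100a14 supplied at most 0.042% in S0 to S4, against 15.0 and 18.9% in S5. The remaining members of the S5 sum were mainly S100a11, at 17.2 and 20.2%. These shares depend on the lengths behind the RPKM values. With GENCODE M21 exon lengths (584 bases for S100a4, 1367 for S100a6), S100a6 had more approximate reads than S100a4 in every library. In S0 SPOPmut these were about 52030 for S100a6 and 44434 for S100a4.

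**Figure D3:**
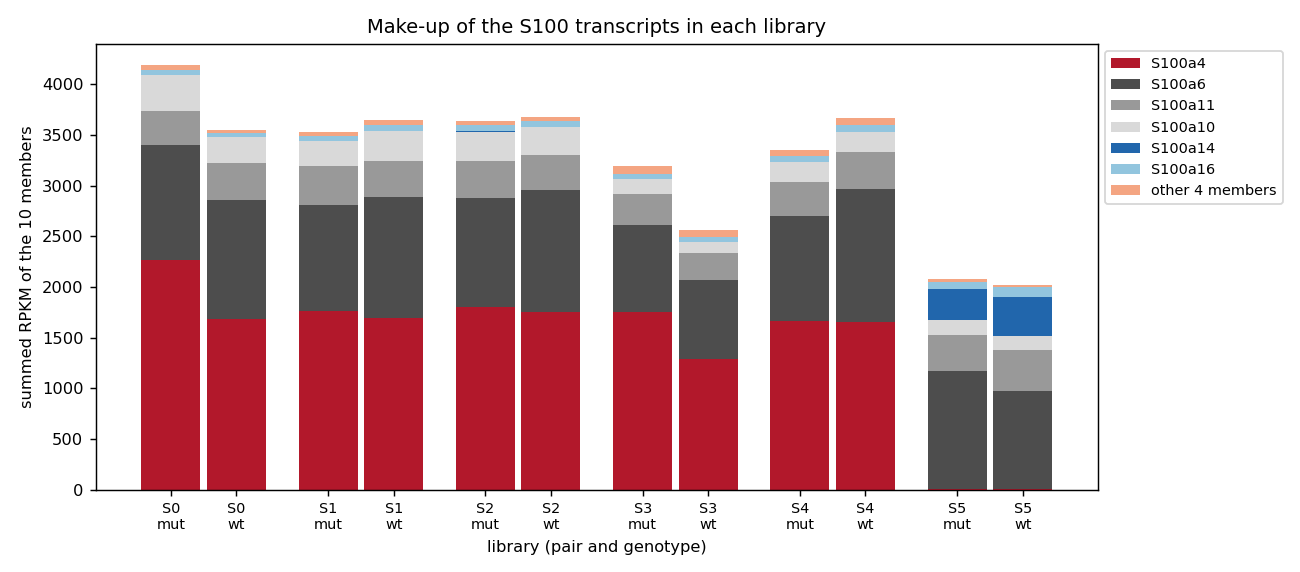
Summed RPKM of the 10 members in each library, stacked by gene, with SPOPmut left of SPOPwt in each pair. The sum is 2563 to 4189 RPKM in S0 to S4, of which S100a4 takes 45.1 to 55.0%, and 2076 and 2021 RPKM in S5, where S100a14 appears in place of S100a4.

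In the order of chromosome 3, from S100a1 to S100a9 the cluster holds 12 S100 genes between 90511034 and 90695721, and S100a11 and S100a10 lie apart at 93520488 to 93526287 and 93555080 to 93564643. On one side of S100a4 lie S100a3 and S100a2, which were lower throughout S0 to S4 than in S5, and on the other S100a5, which like S100a4 was higher. S100a3 spanned 0.770 to 2.56 RPKM outside S5, against 11.9 and 16.9 RPKM in S5 (SPOPmut and SPOPwt), S100a2 at no more than 0.0892 against 3.45 and 4.90 RPKM, and S100a5 at 0.261 to 1.67 against 0.0409 and 0 RPKM. S100a7a, upstream of S100a8 and known from inflamed skin, did not exceed 0.549 RPKM in any library of S0 to S4, against 7.42 and 15.0 RPKM in S5. Of the 7 other S100 genes found, 5 were lower throughout S0 to S4, 1 was higher (S100a5) and 1 overlapped, beside 24.9% lower and 27% higher among the 15508 genes at 1 RPKM or more in at least 2 libraries. S100b and S100z, both among the lower ones, did not reach 1 RPKM in any library. S100a5 reached it only in the S4 SPOPwt library (1.67 RPKM). Those shares therefore cover none of S100b, S100z and S100a5. S100a3 shares exon sequence with Gm42674, as S100a4 does, so some reads of each may belong to Gm42674. The spans of S100a3 and S100a4 do not overlap each other.

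**Figure D4:**
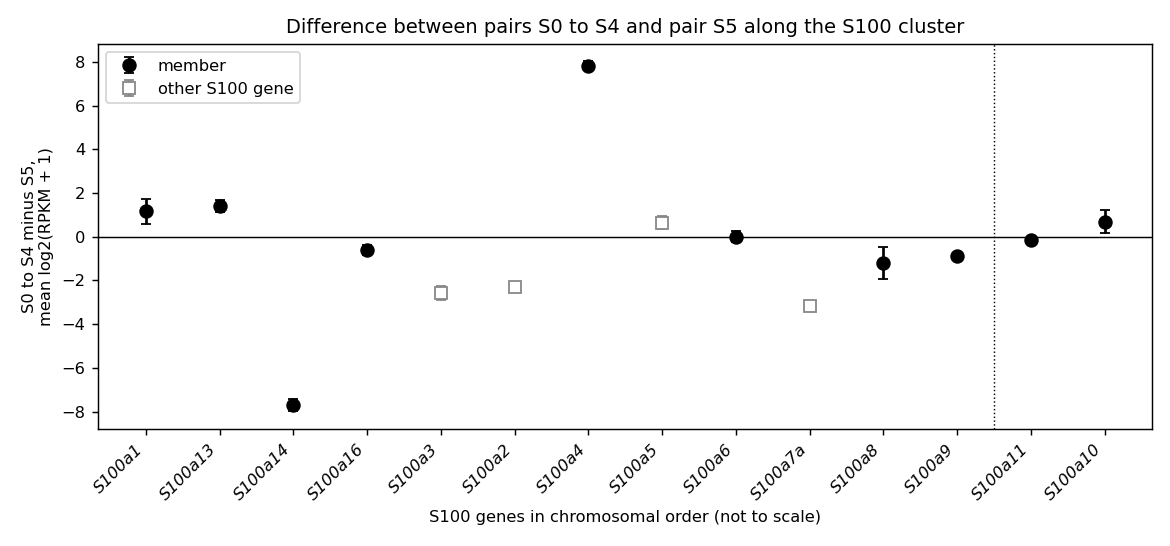
Difference in mean log2(RPKM + 1) between S0 to S4 (10 libraries) and S5 (2 libraries) for the 14 S100 genes of chromosome 3 in their order, not to scale. Filled circles are members, open squares other S100 genes, bars the SD over the libraries of S0 to S4, and the dotted line the gap before S100a11. The sign changes between S100a13 (1.41) and S100a14 (-7.71), between S100a2 (-2.31) and S100a4 (7.83), between S100a6 (0.0094, which is -0.0062 after rescaling to an equal sum and -0.12 after quantile normalization) and S100a7a (-3.16), and between S100a11 (-0.16) and S100a10 (0.69). The other neighbours share a sign, and the order was not tested.

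Between SPOPmut and SPOPwt, 8 of the 10 members could be tested; S100a9 and S100a14 were below 1 RPKM in too many libraries. None of the 8 passed an adjusted p under 0.05 in limma, and none of the 13600 genes did (0% higher, 0% lower). At an unadjusted p under 0.05 there was 1 member (S100a4) of 8, against 5.6% of all genes tested (761 genes). On average 5 members were higher and 3 lower in SPOPmut, with a median difference of 0.064 on the log2(RPKM + 1) scale against 0.00055 over all genes.

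S100a4 was higher in SPOPmut in 6 of 6 pairs, as were 3.62% of all genes tested, and no member was lower in all 6, as were 1.68% of all genes. It ran from 8.52 to 2266 RPKM with a median of 1757 in SPOPmut and from 5.00 to 1757 RPKM with a median of 1668 in SPOPwt (n = 6 each). By pair the log2 difference was 0.43 in S0, 0.051 in S1, 0.035 in S2, 0.44 in S3, 0.014 in S4 and 0.67 in S5. The mean of 0.27 (SE 0.11, 95% confidence interval 0.015 to 0.53, limma adjusted p = 0.886) thus came mostly from S0, S3 and S5, and in S5 from a gene near 5 RPKM. The estimate was 0.13 after quantile normalization and 0.15 with pairs weighted by their residual spread, with the lowest limma adjusted p over all alternatives at 0.43.

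S100a13 and S100a1 differed most in pair S0. For S100a13 the S0 difference was 0.76 (28.1 RPKM in SPOPmut, 16.2 RPKM in SPOPwt) and the other pairs ran from -0.17 to 0.23, with a mean of 0.16 (SE 0.12, limma adjusted p = 0.887). S100a1 differed by 0.81 in S0 (22.7 RPKM in SPOPmut, 12.48 RPKM in SPOPwt) and by -0.20 to 0.19 in the others, with a mean of 0.13 (SE 0.13, limma adjusted p = 0.892). Without S0 these means were 0.045 and -0.0093. S0 is also the pair whose libraries deviated least together across all genes (a correlation of 0.060, against 0.75 or more in the other pairs).

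S100a10 had a mean difference of 0.11 (SE 0.11, limma adjusted p = 0.887), with 0.45 in S0, 0.43 in S3 and -0.23 to 0.074 in the other pairs. Its partner Anxa2 was at -0.23 in S0 and 0.26 in S3, with a mean of -0.051 (SE 0.086, limma adjusted p = 0.923). Both genes differed in the same direction in S1 to S4 and in opposite directions in S0 and S5.

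The other tested members had means between -0.11 and 0.013. For S100a6 the mean was -0.060 (95% confidence interval -0.29 to 0.17), for S100a11 it was 0.013 (-0.18 to 0.20) and for S100a16 it was -0.085 (-0.30 to 0.13). S100a8 had the widest spread, from -1.09 in S3 (1.56 RPKM in SPOPmut, 4.47 RPKM in SPOPwt) to 0.64 in S5 (4.49 RPKM in SPOPmut, 2.52 RPKM in SPOPwt), with a mean of -0.11 (SE 0.22, limma adjusted p = 0.933). The untested S100a14 was higher in SPOPmut in 4 of 6 pairs, and in S5, where it was abundant, its difference was -0.29 (311 RPKM in SPOPmut, 381 RPKM in SPOPwt). In the same pair S100a16 differed by -0.45 (72.2 RPKM in SPOPmut, 99.1 RPKM in SPOPwt).

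**Figure D5:**
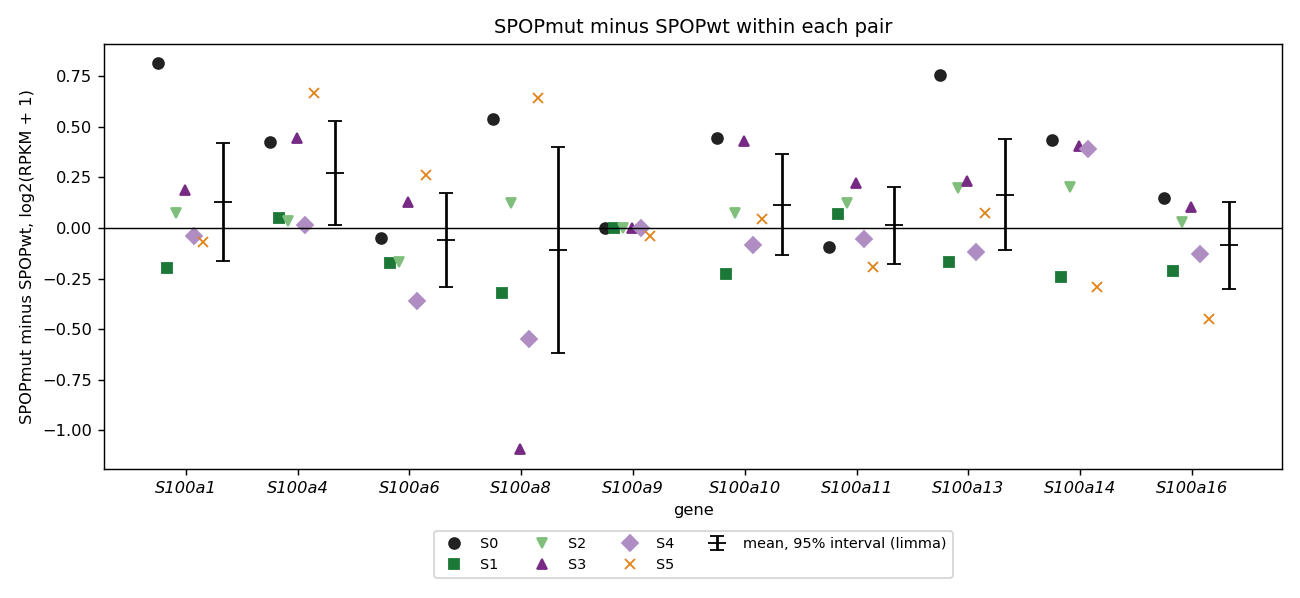
SPOPmut minus SPOPwt within each pair on the log2(RPKM + 1) scale for each member, with 1 symbol per pair. The bar at the right of each tested member is the mean with its 95% confidence interval from limma. S100a4 lies above 0 in all 6 pairs, with a mean of 0.27, and S100a8 spreads from -1.09 to 0.64.

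Among 25 genes of S100 binding partners and receptors, 20 were tested and none passed in either direction, with a median difference of 0.0042. Higher in all 6 pairs were 3 of the 20, beside 3.62% of all genes tested. These were the annexins Anxa1 (mean 0.22, SE 0.083), Anxa5 (0.23, SE 0.083) and Anxa11 (0.15, SE 0.075), with limma adjusted p-values of 0.881, 0.881 and 0.887. The other annexins listed, Anxa2 and Anxa6, were higher in SPOPmut in 2 and 4 of 6 pairs. Anxa1, the most abundant of the list, spanned 153 to 565 RPKM in S0 to S4, against 556 and 458 RPKM in S5 (SPOPmut and SPOPwt). Across the pairs, 9 of the 25 were higher throughout S0 to S4 than in S5 and 5 lower, beside 28.1% and 21.4% of the 13600 genes tested. Only 20 of the 25 belong to those 13600, and Il1a and Alcam, both among the lower ones, do not. Anxa6, Anxa11 and the following 3 genes were chosen after their values were seen. Myh9, the heavy chain of non-muscle myosin IIA, spanned 135 to 238 RPKM in S0 to S4, against 76.3 and 80.7 RPKM in S5. The receptor gene Tlr4 spanned 2.22 to 5.92 RPKM in S0 to S4, against 1.87 and 1.501 RPKM in S5, and Ager, the gene of the receptor RAGE, overlapped (0.506 to 3.52 against 1.31 and 1.94 RPKM).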

How the data were processed

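The authors deposited one RPKM value per gene name and library, for 12 libraries prepared with TruSeq RNA version 2 and read as 51-base pairs on a HiSeq 2500, per the labels' protocols. The submitters' processing notes name STAR 2.4.0j, mm10 and GRCm38, with counting program and annotation not given in the sources used here. Low values did not resolve into whole reads (39.6 to 42.6% lay within 0.04 reads of a multiple of 0.5, against 16% by chance), so no count test was run.

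RPKM values were analysed as log2(RPKM + 1), a scale that understates changes of low genes. Genes at 1 RPKM or more in at least 6 libraries (13600) entered limma 3.58.1 (R 4.3.3) with the pair as a block, two-sided, with Benjamini-Hochberg adjustment over all of them. Same-numbered libraries deviated together from their group means with correlations of 0.75 to 0.95 in S1 to S5 and 0.060 in S0. The pairing comes from the protocols, which speak of pairs, and from the shared numbers. Libraries of the same genotype were compared by the median over genes of a chi-square on approximate reads, which sampling noise alone puts at 0.455. None agreed that closely. S1 and S2 were the closest, at 1.17 (SPOPwt) and 2.01 (SPOPmut), and the next were S0 and S2 SPOPwt at 7.62. The fit and the counts of pairs take S1 and S2 as separate pairs, and their independence was not tested. Alternatives were another pseudocount, filters, scalings, variance priors, pair weights, no block, and each pair left out.

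The genes described, the lists and the division of S0 to S4 from S5 were chosen with earlier results of these data known. The text names the 2 genes of smallest p and the most abundant one of the lists of other S100 genes, partners and epidermal differentiation genes, and for each S100 gene the 2 closest profiles. Of each cell type list it names the most abundant gene, plus Krt5, Epcam, Col1a1 and Vim. Other genes of the lists, such as Ly6g, were named after their values were seen. Coordinates are from GENCODE M21 on GRCm38, whose names matched 91.0% of the 43243 gene names, and promoters from RefSeq.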

Additional observations from a re-analysis of the deposited data

Results flagged for a closer look

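In 9 of the 30 sets of 6 values examined (each member's SPOPmut libraries, SPOPwt libraries and pair differences), 1 library or pair lay apart from the other 5 by Dixon's ratio at its 95% critical value, and in all 9 it was S5. That S5 stands apart was known before these sets were examined, and the sets share the same libraries. The flags therefore describe S5 and are no separate test of it. The S5 libraries had 8.52 (SPOPmut) and 5.00 RPKM (SPOPwt) of S100a4, where the other pairs had 1668 to 2266 and 1290 to 1757 RPKM. They had 311 (SPOPmut) and 381 RPKM (SPOPwt) of S100a14, where the other pairs had at most 1.33 and 0.758 RPKM. S100a13 in S5 SPOPmut was at 9.88 RPKM, with the others at 25.3 to 31.9 RPKM, and S100a8 in S5 SPOPmut at 4.49 RPKM, with the others at 0.194 to 1.56 RPKM. S100a9 had 0.824 (SPOPmut) and 0.873 RPKM (SPOPwt) in S5 and was listed at 0 elsewhere, so its pair difference of -0.038 in S5 was also apart. With the other 5 values at 0, any value but 0 is flagged. The markers of epithelial and mesenchymal cells differ between the same libraries, and their part in these values was not tested.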

How the results depend on the processing

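No S100 gene was called between SPOPmut and SPOPwt by limma under any alternative run. Over all genes, pair weights gave 7 higher and 2 lower, and every other alternative gave 0. Without the replicate block 0 genes were called, with 29 at an unadjusted p under 0.05 against 761 with it. Of 111 alternative differences of the tested members, 105 kept their direction and 6 turned. S100a6 turned to 0.12 under quantile normalization and S100a8 to 0.046 with a pseudocount of 0.1. Leaving out each pair gave -0.0093 to 0.19 for S100a1 (negative without S0), -0.26 to 0.088 for S100a8 (positive without S3) and -0.029 to 0.054 for S100a11 (negative without S2 or S3). The number of members lower throughout S0 to S4 than in S5 was 4 after rescaling to an equal sum and 4 after quantile normalization, and 2 to 3 with each pair left out. The number higher was 3 to 4. Depth limits S100a8, S100a9 and S100a14 where they rest on few reads.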

Other observations

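Genes beside the S100 cluster and the cell type lists add to the description of S5. Of 15 epidermal differentiation complex genes, 12 were lower throughout S0 to S4 than in S5, beside 24.9% of the 15508 genes at 1 RPKM or more in at least 2 libraries. Several of the 15, among them Flg and Hrnr, did not reach that level, and 2 entered the genotype fit. Sprr1a, a cornified envelope precursor, spanned 1.59 to 33.1 RPKM in S0 to S4, against 115 and 155 RPKM in S5 (SPOPmut and SPOPwt), and Sprr2a1 at 0.327 to 3.07 RPKM, against 219 and 169 RPKM. Between SPOPmut and SPOPwt, Sprr1a had a mean log2 difference of -1.01 (SE 0.38) and Sprr2a1 of -0.58 (SE 0.21), both with a limma adjusted p of 0.881. Of the 7 fused-type S100 genes, which join an S100 domain to long repeats, 5 were lower throughout S0 to S4, but only Tchh and Crnn reached 1 RPKM in at least 2 libraries. The most abundant, Tchh, reached at most 0.0578 RPKM in S0 to S4, against 4.98 and 2.91 RPKM in S5.

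The most abundant genes of the other lists were Krt18 (luminal), at 6.35 to 89.6 RPKM in S0 to S4, against 598 to 599 RPKM in S5, and Krt6a (squamous), at no more than 0.104 against 440 to 838 RPKM. Col3a1 (mesenchymal) spanned 380 to 819 RPKM outside S5 and was at most 0.154 RPKM in S5, and Acta2 (smooth muscle) at 107 to 758 against 0.648 to 2.26 RPKM. Cd14 (macrophage) spanned 5.34 to 16.8 RPKM outside S5, against 20.3 to 20.4 RPKM in S5, Mbp (glial) at 0.153 to 1.01 against 7.30 to 9.35 RPKM, Ncam1 (neuroendocrine) at 4.52 to 14.7 against 1.68 to 2.89 RPKM, and Egfl7 (endothelial) overlapped. Of 11 luminal genes 8 were lower throughout S0 to S4 and 1 higher, Hoxb13 (10.3 to 29.9 against 4.43 to 5.04 RPKM). Of 8 basal genes 7 were lower throughout and 1 higher, Dst (9.47 to 13.4 against 8.46 to 8.53 RPKM). Of 12 mesenchymal genes 10 were higher throughout and 0 lower, with Thy1 (at most 0.0204 RPKM outside S5) and Lum (at most 1.59 RPKM) overlapping. Beside these stand 24.9% lower and 27% higher among the 15508 genes at 1 RPKM or more in at least 2 libraries. Some of the listed genes did not reach that level.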
